A study of Sus scrofa with 12 samples.

Results

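The genes described here are 10 markers of the lymphocytes that reside in or pass through the liver. They were measured in liver RNA of 12 pigs, each on its own Affymetrix snowball microarray. The genes are CD3D, CD3E, CD2, CD4, CD8A, LCK, GZMB, PRF1, CD72 and MS4A1. Every probe set whose only symbol in the platform annotation is one of these was taken, with no filter on its values. This gave 27 of the 47845 probe sets on the array, and each of the 10 genes was found with at least 2 probe sets.

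The study asked which liver transcripts differ between pigs of divergent residual feed intake (RFI), the part of feed intake that growth and maintenance do not account for. The pigs were offspring of Large White × Landrace sows and Hylean Maxgro boars, sampled at day 140 from the right liver lobe after feeding, and were given no other treatment by the labels. The labels put 6 pigs in the low RFI class (P307, P308 and P309 of sex m, P310, P323 and P324 of sex w) and 6 in the high RFI class (P301, P302 and P303 of sex m, P304, P317 and P318 of sex w). A low RFI is the paper's high feed efficiency. The RNA is that of a whole piece of liver, so that fewer cells of a type and less RNA per cell cannot be told apart.

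T lymphocytes recognize antigen through a receptor whose signal is carried by the CD3 chains. CD4 and CD8 are the co-receptors that bind MHC class II and class I, and LCK is the Src family kinase that sits on their tails and phosphorylates CD3. Cytotoxic T cells and natural killer (NK) cells store perforin, which opens the target membrane, and granzymes, the proteases that then induce apoptosis. B lymphocytes carry CD20 (MS4A1) and CD72, a C-type lectin that dampens signals of the B cell receptor. The liver is known for many resident lymphocytes, with NK and CD8 T cells well represented among them. In pigs, CD2 and CD8A are carried by NK cells as well as by T cells.

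The tissue was liver by its markers. The hepatocyte gene ALB averaged 14.06 ± 0.05 in pigs labelled low RFI and 14.03 ± 0.03 in pigs labelled high RFI (log2 intensity, SD, n = 6 each), and TTR averaged 13.88 ± 0.07 and 13.92 ± 0.02 in the same order of classes. Values of all probe sets ran between 0.39 and 14.26. Of the 27 lymphocyte probe sets, 15 averaged at least 4 and 12 averaged less. Probe sets for background, 69 in number, averaged between 1.20 and 7.67 with rising GC content of 3 to 25 bases per probe. Only 1 of the 27, CD4 SNOWBALL_000953, averaged above the highest of these background means. The GC content of the other probes was not given in the sources used here, so that whether they stood above their own background was not established. Array medians lay between 3.48 and 3.53. The first principal component of all probe sets took 14.8% of the variance and placed P317, labelled high RFI, at -28.15. That was within the range of the pigs labelled low RFI (-37.54 to -8.73), whereas the other 5 pigs labelled high RFI lay between 7.77 and 40.05.

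No lymphocyte marker passed the test between the RFI classes when every probe set was tested. The paper, which filtered probe sets on SD, lists probe sets of CD72 and GZMB among its altered transcripts. In limma, with RFI class as the only factor, 0 of the 27 probe sets reached the threshold of the study's methods, a Storey q-value under 0.30. Over the whole array 15 of 47845 did, which is 0.0314%. The lowest q of a marker was 0.44. All differences are low RFI minus high RFI on the log2 scale. By the sample labels, the differences run opposite to the direction that the paper states for its transcripts, so every sign here is that of the labels. The 27 differences ranged from -0.52 to 0.50 with a median of 0.07, against a median of -0.01 over all probe sets. A positive difference was found for 14 of the 27 and for 46.7% of all probe sets. At an unadjusted p under 0.05 there were 4 markers, 2 higher and 2 lower, against 7.29% of all probe sets (3.79% higher and 3.51% lower). The 2 that were higher are probe sets of CD72, and the 2 that were lower belong to the cytotoxic genes GZMB and PRF1. GZMB did not keep this p once the background of GC-rich probe sets was a covariate, while PRF1 and the CD72 probe sets did. That background itself differed between the classes. With it the median SE over all probe sets was 0.16, against 0.13 without it. The GZMB difference was -0.36 (SE 0.18) with it and -0.39 (SE 0.14) without it. Whether these genes differ in their dependence on the background was not tested. Standard errors of the 27 differences lay between 0.08 and 0.46 with a median of 0.16, which is the precision that 6 pigs per class gave.

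**Figure D1:**
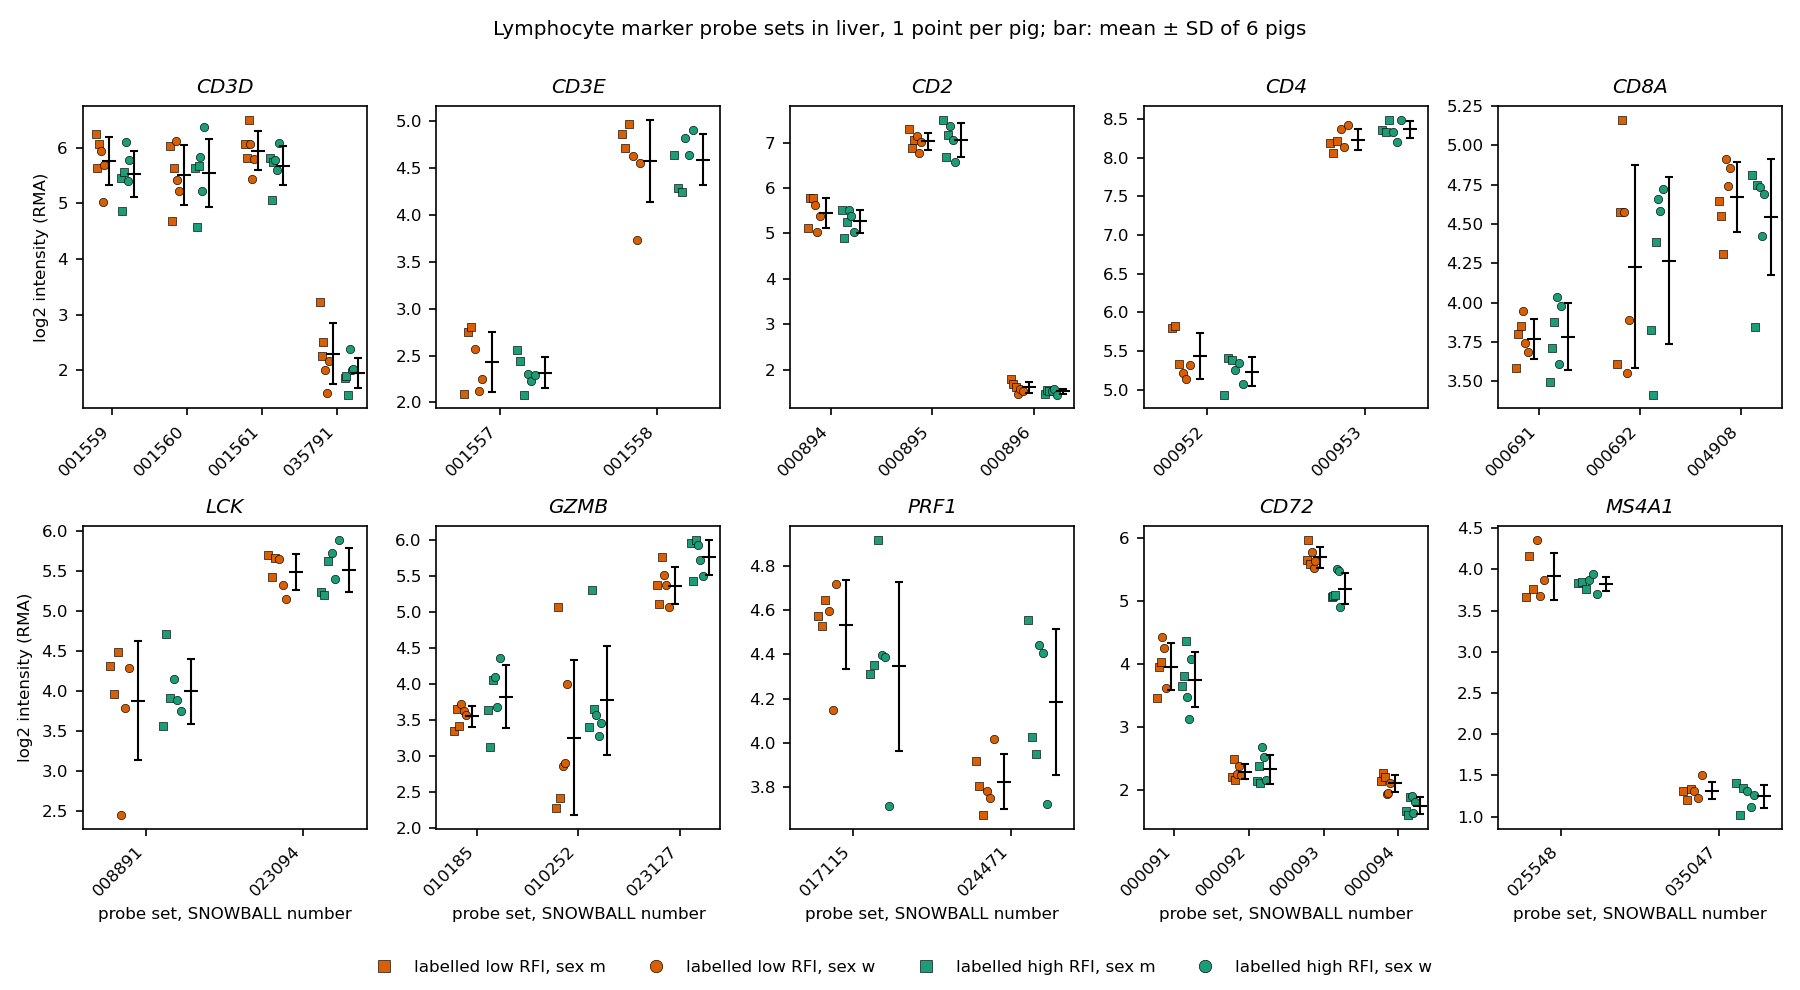
Log2 intensity (RMA) of each of the 27 lymphocyte marker probe sets, with 1 point per pig, squares for sex m and circles for sex w, orange for pigs labelled low RFI and green for pigs labelled high RFI. Horizontal ticks are means and bars are the SD of 6 pigs. The classes stand apart at CD72 SNOWBALL_000093 and SNOWBALL_000094 and overlap at the other 25 probe sets.

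The B cell genes are given first, as they held the markers with the lowest p. CD72 SNOWBALL_000093 had log2 intensities of 5.65, 5.97, 5.57, 5.77, 5.52 and 5.63 in the low RFI pigs P307, P308, P309, P310, P323 and P324. In the high RFI pigs P301, P302, P303, P304, P317 and P318 it had 5.07, 5.08, 5.10, 5.51, 5.48 and 4.91. The lowest low RFI pig, P323, was just above the highest high RFI pig, P304, so that the classes did not overlap. The means were 5.69 ± 0.16 in low RFI and 5.19 ± 0.25 in high RFI pigs (SD, n = 6 each), a difference of 0.50 (SE 0.12, 95% interval 0.24 to 0.76) or 1.41-fold. The limma q-value was 0.44 at an unadjusted p of 0.0011. An exact permutation test over pigs, two-sided, gave p = 0.0022, the smallest that the 924 splits of 6 against 6 allow.

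A second CD72 probe set, SNOWBALL_000094, had 2.15, 2.27, 2.21, 1.95, 1.95 and 2.11 in the low RFI pigs and 1.67, 1.61, 1.90, 1.90, 1.64 and 1.81 in the high RFI pigs, in the order of pigs just given. Again every low RFI pig was above every high RFI pig, by a narrow margin, and at a low level of signal. The difference was 0.35 (SE 0.09, limma q = 0.44), with means of 2.11 ± 0.14 in low RFI and 1.75 ± 0.13 in high RFI pigs. Of the 27 markers these 2 were the only ones whose classes did not overlap. Over the array, the classes did not overlap for 0.339% of all probe sets, and 0.159% of all probe sets were those with low RFI higher.

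The classes overlapped at the remaining CD72 probe sets. SNOWBALL_000091 averaged 3.96 ± 0.37 in low RFI and 3.75 ± 0.44 in high RFI pigs, a difference of 0.21 with a 95% interval of -0.23 to 0.65. SNOWBALL_000092 averaged 2.29 ± 0.12 and 2.33 ± 0.23 in these classes, a difference of -0.04 with an interval of -0.28 to 0.20. The sign of the difference thus varied among the CD72 probe sets. Only SNOWBALL_000093 and SNOWBALL_000094 followed each other over the 12 pigs (Pearson r = 0.72), while the other 5 pairs had r between -0.43 and 0.40. What each probe set covers of the CD72 transcript was not given in the sources used here.

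Whether CD72 was called turned on the choice of probe sets tested and on 1 pig. The filter of the study's methods leaves out the 10% of probe sets that vary least over the 12 pigs and the 10% that vary most within either class. By leaving out a high SD within a class, it removes probe sets with a large residual spread. The median SE over the probe sets tested was 0.130 with the filter and 0.127 without it. For CD72 SNOWBALL_000093 the SE was 0.13 with it and 0.12 without it, and for SNOWBALL_000094 0.12 and 0.09. The filter kept 17 of the 27 markers and limma then called 3, among 2.66% of the 35844 probe sets it kept. These were CD72 SNOWBALL_000093 (q = 0.08), CD72 SNOWBALL_000094 (q = 0.25) and GZMB SNOWBALL_023127 (q = 0.25). The paper lists the same 3 probe sets as altered, in the direction opposite to that of the labels. With only the 20655 probe sets that averaged at least 4, CD72 SNOWBALL_000093 alone was called (q = 0.24), among 1.34%. Without P317 both CD72 probe sets were called (q = 0.15 and 0.26), among 2.81% of all probe sets. The background moved with the classes: probe sets for background with a GC count of 17 to 24 averaged 6.55 ± 0.08 in low RFI and 6.69 ± 0.11 in high RFI pigs. With that background as a covariate the CD72 differences were 0.34 and 0.43, each with q = 0.99, and no probe set of the array was called.

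MS4A1, the CD20 gene, did not pass the test. MS4A1 SNOWBALL_025548 had a lowest value of 3.66, a median of 3.82 and a highest of 4.36 in low RFI pigs, against 3.70, 3.84 and 3.94 in high RFI pigs. The low RFI pigs spread more widely, with P308 (4.16) and P310 (4.36) above all other pigs. The difference was 0.09 (95% interval -0.17 to 0.35, limma q = 0.79). Its second probe set, SNOWBALL_035047, had values between 1.02 and 1.51 in all 12 pigs and a difference of 0.07.

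The cytotoxic effector genes had their lower values in low RFI pigs for 4 of 5 probe sets, with none called. The gene GZMB encodes the protease granzyme B. Its probe set SNOWBALL_023127 had 5.38, 5.10, 5.76, 5.50, 5.37 and 5.06 in low RFI pigs, against 5.95, 5.42, 6.00, 5.92, 5.72 and 5.50 in high RFI pigs. The classes overlapped, as P309 in the low RFI class reached 5.76, above P302, P317 and P318. The difference was -0.39 (SE 0.14, 95% interval -0.69 to -0.09), at an unadjusted p of 0.014 and a q of 0.53 in limma. The exact permutation test gave p = 0.0238. With the background as a covariate the difference was -0.36 (SE 0.18), at an unadjusted limma p of 0.068.

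The other GZMB probe sets had negative differences too, with larger error, but the 3 probe sets did not follow each other closely over the pigs. SNOWBALL_023127 had r = 0.35 with SNOWBALL_010185 and r = -0.32 with SNOWBALL_010252, and the latter 2 had r = -0.10 with each other. SNOWBALL_010185 averaged 3.55 ± 0.15 in low RFI and 3.82 ± 0.44 in high RFI pigs, a difference of -0.27 (95% interval -0.64 to 0.10). SNOWBALL_010252 had 2.28, 5.06, 2.42, 2.86, 2.90 and 3.99 in low RFI pigs, against 3.40, 5.30, 3.64, 3.56, 3.28 and 3.45 in high RFI pigs. P308 in the low and P302 in the high RFI class stood far above their classes at this probe set, while at SNOWBALL_023127 they had 5.10 and 5.42, both in the lower part of their class. The difference of -0.52 had the widest interval of all markers (-1.50 to 0.46). GZMB lies beside GZMH in the pig genome annotation Sscrofa11.1, and probe sets whose name ends in _s_st, as 2 of these 3 do, may match several transcripts of a family.

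PRF1, the perforin gene, gave opposite signs in its 2 probe sets. PRF1 SNOWBALL_024471 had 3.92, 3.81, 3.67, 3.78, 3.75 and 4.02 in low RFI pigs, against 4.55, 4.03, 3.95, 4.44, 4.40 and 3.72 in high RFI pigs. P318 was low among the high RFI pigs and the other 5 were above 5 of the 6 low RFI pigs. The difference was -0.36 (SE 0.14, 95% interval -0.65 to -0.06, limma p = 0.021 and q = 0.55), and the exact permutation test gave p = 0.0433. With the background as a covariate the difference was -0.46 (SE 0.18), at an unadjusted limma p of 0.023. PRF1 SNOWBALL_017115 averaged 4.53 ± 0.20 in low RFI and 4.35 ± 0.38 in high RFI pigs, a difference of 0.19 with an interval of -0.16 to 0.54. Over the 12 pigs the values of these 2 probe sets had an r of 0.01.

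The T cell genes showed no difference that passed the test. For CD3D, which encodes the delta chain of CD3, 3 of 4 probe sets were positive. CD3D SNOWBALL_001561 had a lowest value of 5.45, a median of 5.95 and a highest of 6.51 in low RFI pigs, against 5.06, 5.76 and 6.09 in high RFI pigs. The classes overlapped, with P309 highest and P302 lowest. The difference was 0.27 (95% interval -0.12 to 0.66, limma q = 0.68). With the background as a covariate it was 0.49 (SE 0.22), at an unadjusted limma p of 0.045 and a q of 0.99. Among the other CD3D probe sets, SNOWBALL_001559 had 0.24, SNOWBALL_035791 had 0.34 and SNOWBALL_001560 had -0.04.

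CD3E encodes the epsilon chain and lies beside CD3D in the pig genome. CD3E SNOWBALL_001558 had 4.86, 4.72, 4.97, 4.62, 3.73 and 4.55 in low RFI pigs, against 4.64, 4.29, 4.25, 4.82, 4.64 and 4.91 in high RFI pigs. The low RFI pig P323 was the lowest of all by a wide gap. The difference was -0.01 (95% interval -0.42 to 0.39). The dimmer SNOWBALL_001557 had a difference of 0.11 (interval -0.19 to 0.41).

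CD2 is an adhesion receptor of T and NK cells. CD2 SNOWBALL_000895 had a lowest value of 6.78, a median of 7.04 and a highest of 7.30 in low RFI pigs, against 6.57, 7.11 and 7.51 in high RFI pigs, so that the low RFI pigs lay inside the range of the high RFI pigs. Its difference was -0.03 (95% interval -0.36 to 0.31). SNOWBALL_000894 had 0.19 and SNOWBALL_000896 had 0.09, both with intervals that include 0.

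The co-receptors followed no common direction. CD4 SNOWBALL_000953 had a lowest value of 8.06, a median of 8.20 and a highest of 8.43 in low RFI pigs, against 8.20, 8.34 and 8.49 in high RFI pigs. It differed by -0.14 (SE 0.09, 95% interval -0.33 to 0.06, limma q = 0.67). CD4 SNOWBALL_000952 differed by 0.20 (interval -0.09 to 0.50), and the 2 probe sets of CD4 ran against each other over the pigs (r = -0.54). In human tissue CD4 is also carried by monocytes and macrophages. For CD8A, the alpha chain of CD8, the 3 probe sets differed by -0.02, -0.04 and 0.13. CD8A SNOWBALL_000692 spread widely within both classes, with 3.55, 4.23 and 5.16 as lowest, median and highest value in low RFI and 3.42, 4.49 and 4.72 in high RFI pigs.

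The kinase gene LCK had a difference of -0.03 at SNOWBALL_023094 (95% interval -0.33 to 0.27), with 5.15, 5.54 and 5.70 as lowest, median and highest value in low RFI and 5.20, 5.51 and 5.89 in high RFI pigs. At SNOWBALL_008891 the low RFI pig P310 had 2.45, whereas the other low RFI pigs lay between 3.78 and 4.48 and the high RFI pigs between 3.56 and 4.71. That probe set differed by -0.12 with a wide interval of -0.76 to 0.52.

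**Figure D2:**
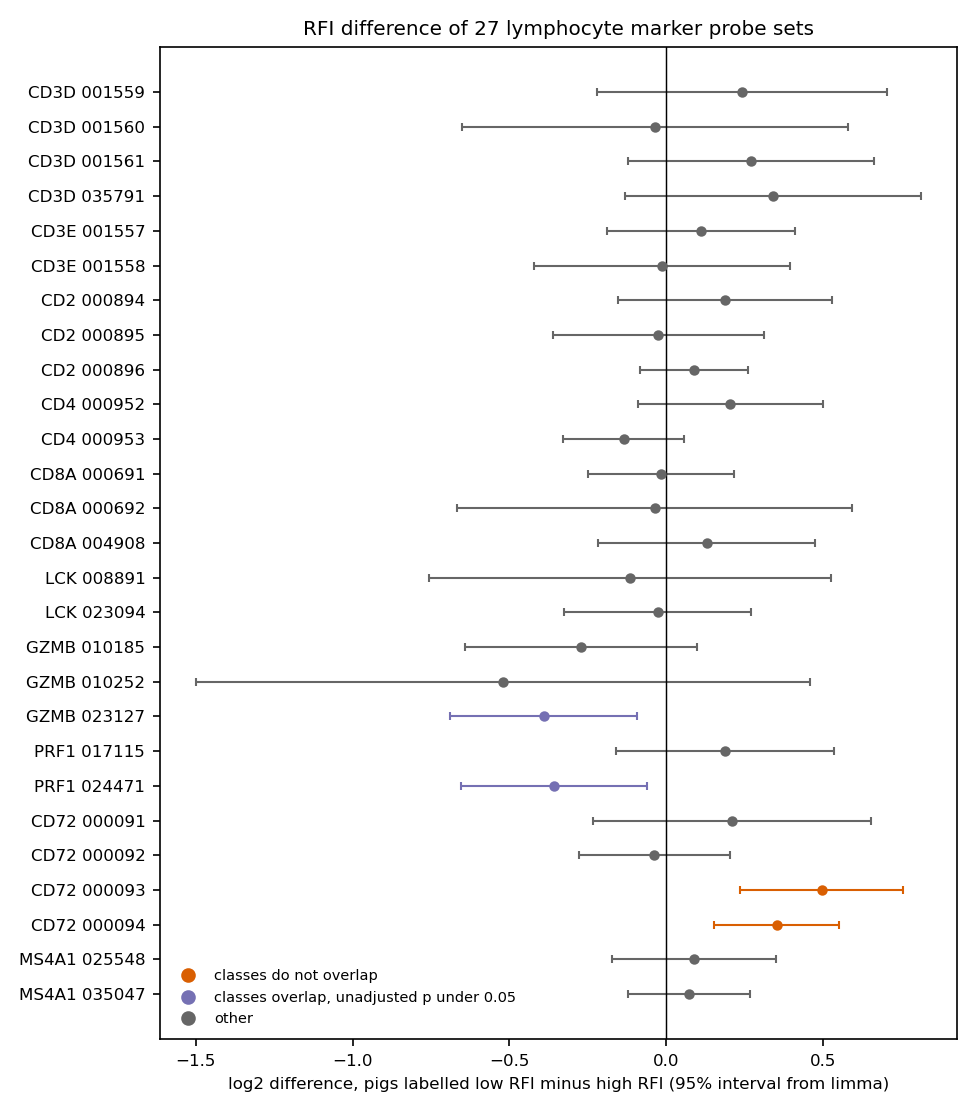
Difference of each lymphocyte marker probe set between the RFI classes, low RFI minus high RFI on the log2 scale, with its 95% interval from limma (n = 6 pigs each). CD72 SNOWBALL_000093 (0.50) and SNOWBALL_000094 (0.35) are in orange because their classes do not overlap, GZMB SNOWBALL_023127 (-0.39) and PRF1 SNOWBALL_024471 (-0.36) are in violet for an unadjusted p under 0.05, and the intervals of the other 23 include 0.

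Sex was balanced over the classes, with 3 pigs of each sex in each class. No marker differed between the sexes at q under 0.30, whereas 0.0397% of all probe sets did. No marker reached an unadjusted p under 0.05 either, against 6.11% of all probe sets, and differences (w minus m, with RFI class as a covariate) lay between -0.44 and 0.33. In a second fit, the interaction of sex and RFI class was called for no marker and for no probe set of the array (0%). An unadjusted p under 0.05 was found for 4 of the 27 markers and for 4.44% of all probe sets. The 4 were T cell genes and all negative, a direction that 2.31% of all probe sets had at this p. These were CD3D SNOWBALL_001559 (-0.89, SE 0.39), CD3D SNOWBALL_035791 (-1.11, SE 0.34), CD3E SNOWBALL_001558 (-0.95, SE 0.31) and CD8A SNOWBALL_000692 (-1.22, SE 0.52). Their q-values were all 0.96. The other probe sets of these 3 genes did not reach that p. CD3D SNOWBALL_001560 had -0.38, CD3D SNOWBALL_001561 had -0.65, CD3E SNOWBALL_001557 had -0.15, CD8A SNOWBALL_000691 had -0.13 and CD8A SNOWBALL_004908, the brightest of CD8A, had 0.19. No probe set of the other T cell genes reached it either. CD4 SNOWBALL_000952 had -0.41 and SNOWBALL_000953 had 0.21. CD2 SNOWBALL_000894 had -0.31, SNOWBALL_000895 had 0.02 and SNOWBALL_000896 had -0.19. LCK SNOWBALL_008891 had -0.61 and SNOWBALL_023094 had -0.54. The sign of the interaction was negative for 18 of the 27 markers and for 50.7% of all probe sets.

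A negative interaction means that the difference, low RFI minus high RFI, was smaller or more negative in pigs of sex w than in those of sex m. CD3E SNOWBALL_001558 averaged 4.85 in low RFI and 4.39 in high RFI pigs of sex m, and 4.30 in low RFI and 4.79 in high RFI pigs of sex w. Among pigs of sex m all 3 low RFI pigs were above the 3 high RFI pigs, and among pigs of sex w all 3 were below. CD3D SNOWBALL_035791 averaged 2.67 in low RFI and 1.78 in high RFI pigs of sex m, against 1.92 in low RFI and 2.14 in high RFI pigs of sex w. The 4 probe sets come from 3 genes that share cells and arrays, and so they are not independent. P323, a low RFI pig of sex w, had the lowest value of its class at all 4. Without P323 the interactions of CD3D were -0.63 and -0.94, that of CD3E was -0.66 and that of CD8A was -0.997. In that fit 2 of the 27 markers had an unadjusted p under 0.05, all negative, beside 1051 positive and 1003 negative of all 47845 probe sets.

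**Figure D3:**
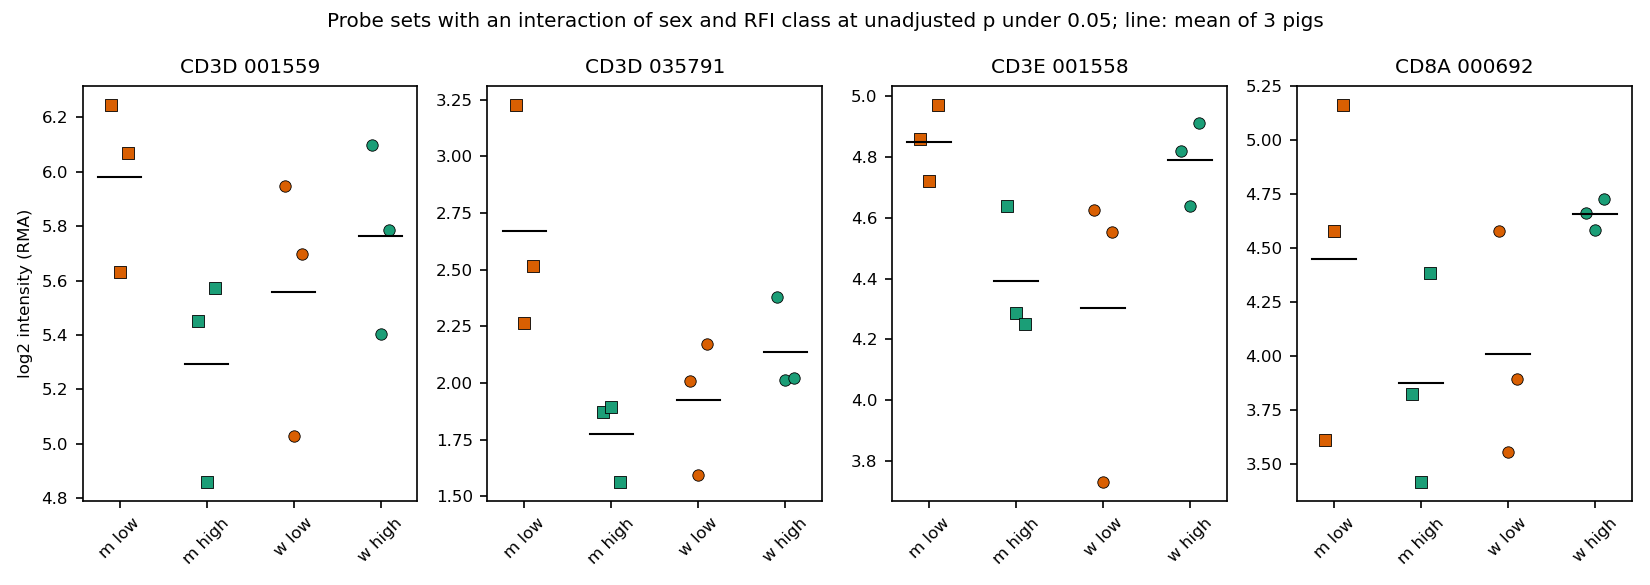
Log2 intensity of the 4 lymphocyte marker probe sets with an unadjusted p under 0.05 for the interaction of sex and RFI class, by sex (squares for m, circles for w) and RFI class (orange for low, green for high), with 1 point per pig and a line at the mean of 3 pigs. At CD3E SNOWBALL_001558 the means are 4.85 in low RFI and 4.39 in high RFI pigs of sex m, and 4.30 in low RFI and 4.79 in high RFI pigs of sex w.

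Probe sets of the same gene followed each other only in part. Among the 26 pairs of probe sets that share a marker gene, the median r over the 12 pigs was 0.18, and 7 pairs (26.9%) had r of at least 0.50. Over all 61645 same-gene pairs of the array, the median was 0.08 and 12.1% reached 0.50. Taken by gene, the median of the within-gene median r was 0.05 for the marker genes and 0.13 for all genes. A within-gene median of at least 0.50 was found for 1 marker gene, against 15.7% of the 6798 genes with several probe sets. CD3D was the marker with the closest probe sets. All 6 of its pairs were positive, with a median of 0.64 and a highest r of 0.85 between SNOWBALL_001559 and SNOWBALL_001561. CD3E had an r of 0.42 for its only pair, and CD8A had 0.62 for SNOWBALL_000691 with SNOWBALL_000692. The only pairs of CD4 (-0.54), LCK (-0.21) and MS4A1 (-0.08) were negative, as were 8 of the 26 pairs (30.8%) against 40.6% of all same-gene pairs.

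To describe how the markers varied together from pig to pig, each gene was taken through its brightest probe set, which gave 45 pairs of genes. The median r was 0.13 and 36 pairs were above 0, while the median over all pairs of named genes on the array was 0.003. An r of at least 0.50 was found for 6 pairs (13.3%, against 6.09% of all gene pairs), and an r of -0.50 or below for 2 (4.44%, against 5.76%). At an unadjusted permutation p under 0.05 there were 3 of the 45 pairs, a count that was not taken over all gene pairs. None of the 45 had a Benjamini-Hochberg adjusted p under 0.05, and the lowest was 0.32.

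The T cell receptor genes CD3D and CD3E formed the closest pair, with r = 0.71 over the 12 pigs (permutation p = 0.013) and Spearman rho = 0.73 (permutation p = 0.009). Without P302 and P309, the pigs farthest from the median of CD3D, r was 0.75. The pair held within each class as well, with r = 0.85 in low RFI and 0.70 in high RFI pigs, and with means of all probe sets r was 0.54. LCK, which acts on CD3, went with CD3D (r = 0.64, permutation p = 0.021, rho = 0.58 with p = 0.053) and with CD3E (r = 0.52, permutation p = 0.077, rho = 0.71 with p = 0.013). These fell to 0.15 and 0.13 with means of all probe sets. For r and rho of the uncentred values, all of these pairs had an adjusted permutation p of at least 0.29. With each class centred on its mean, the adjusted permutation p of r was 0.13 for CD3D and CD3E and 0.16 for CD3D and LCK.

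Other pairs above 0.50 were CD2 with GZMB (0.53, rho 0.61), CD2 with PRF1 (0.50, rho 0.37, but 0.18 without P318) and the B cell genes CD72 with MS4A1 (0.53, rho 0.34). None of these 3 had an unadjusted permutation p of r under 0.05. CD72 and MS4A1 kept r = 0.76 in low RFI and 0.84 in high RFI pigs, and 0.32 without P318 and P308, the pigs farthest from the median of CD72. CD4 and CD72 ran against each other (r = -0.67, permutation p = 0.019, rho = -0.47 with p = 0.129), but with means of all probe sets r was 0.21. GZMB and CD72 had r = -0.50, and 0.03 once each class was centred on its mean. For CD8A, the values with other markers rested on single pigs. CD8A and CD3D had r = 0.39 (rho = 0.13), which was -0.33 without P302 and 0.75 without P309, and -0.57 in low RFI against 0.91 in high RFI pigs. CD8A and CD2 had r = 0.43, or 0.18 without P302, and CD8A and CD4, the other co-receptor, had 0.26, or 0.53 without P302.

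**Figure D4:**
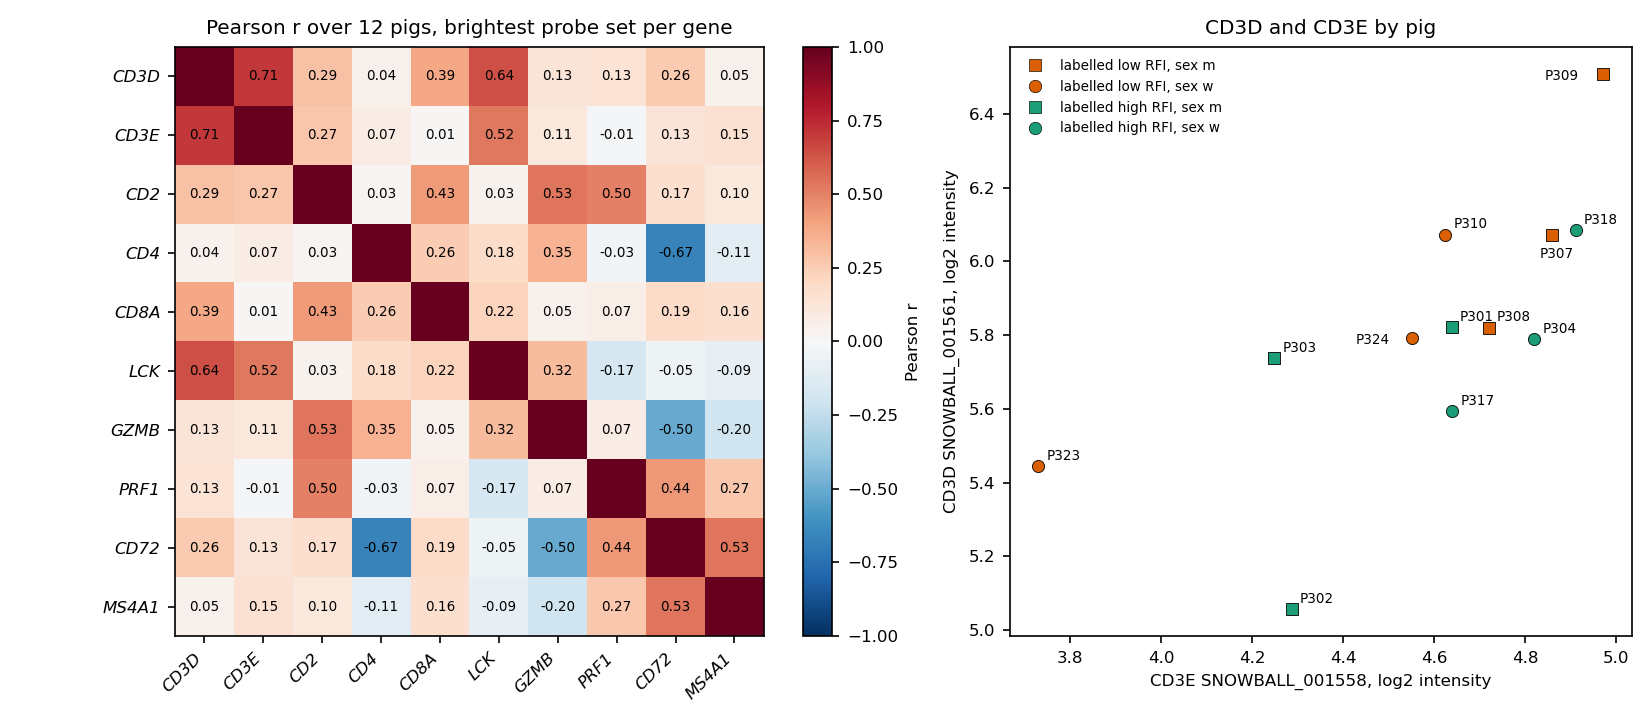
Left, Pearson r between the 10 lymphocyte marker genes over 12 pigs, each gene by its brightest probe set, on a color scale from -1 to 1. Right, log2 intensity of CD3D (SNOWBALL_001561) against CD3E (SNOWBALL_001558), with 1 point per pig, squares for sex m, circles for sex w, orange for low RFI and green for high RFI. CD3D and CD3E have r = 0.71, with P323 and P302 low and P309 high.

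Out of 13755 named genes, the 10 whose brightest probe sets were most like CD3E over the 12 pigs had r between 0.81 and 0.92. They were SLA-DRB4, a class II gene of the pig MHC (0.92), TREM2, a receptor of myeloid cells (0.87), LOC100511639, APPL2, NHSL2, TEAD1, NR3C2, GDNF, HOXD8 and FAT1. CD3D was only at rank 99 of likeness to CD3E and LCK at rank 650. MS4A1 was closest to SYN3, TMEM187, APCDD1, TEX101 and LAPTM4A, with r between 0.84 and 0.90, and CD72 stood at rank 414 for it. GZMB was closest to OSCAR (0.90), TREH, LOC100515492, CCDC58 and SEPHS2. CD72 was closest to MPHOSPH9 (0.89), the bile acid receptor gene NR1H4 (0.85), CALM2, UHRF2 and SMCHD1. These are the highest of many values of r over only 12 pigs, given as a description.

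Further genes of the same cells and pathways were read from 13 lists with 213 genes, of which 173 were on the array, each by its brightest probe set. Without the filter on SD, none was called at q under 0.30 in either direction in any list. With it, 117 of the 173 genes were kept and 4 were called, 3 higher and 1 lower, beside 2.66% of all probe sets kept. These were MRC1 (q = 0.09), CRTAM (q = 0.25) and GZMM (q = 0.29), higher in low RFI pigs, and CXCR5 (q = 0.22), lower in low RFI pigs. The paper lists MRC1, CRTAM and CXCR5 among its altered transcripts too, in the direction opposite to that of the labels. Of 14 other genes of the T cell receptor complex and its signaling, 1 was higher and 1 lower at an unadjusted p under 0.05, beside 3.79% and 3.51% of all probe sets. SH2D1A, an adaptor of SLAM receptors, averaged 3.79 ± 0.19 in low RFI and 3.52 ± 0.12 in high RFI pigs, and ICOS, a costimulatory receptor, averaged 2.61 ± 0.61 and 3.40 ± 0.59 in these classes. The median difference of the list was 0.03. CD3G, the gamma chain, differed by 0.18 (SE 0.14), and CD247, the zeta chain, by -0.18 (SE 0.14).

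Of 22 NK and cytotoxic lymphocyte genes, 2 were higher and none lower at that p, beside 3.79% and 3.51% of all probe sets. The median difference of this list was 0.01. GZMM, a granzyme of NK cells, averaged 5.07 ± 0.33 in low RFI and 4.68 ± 0.24 in high RFI pigs, and CRTAM, a receptor of activated cytotoxic cells, differed by 0.45 (SE 0.19, limma q = 0.58 without the filter). These are opposite in sign to GZMB. GNLY, the granulysin gene, differed by -0.32 (SE 0.18), and NKG7 by 0.10 (SE 0.15). Of 19 B cell and plasma cell genes, BANK1, a scaffold of B cell receptor signaling, was the only one at that p (0.32, SE 0.15, limma q = 0.60). CD79A and CD79B, the signaling chains of the B cell receptor, differed by -0.12 (SE 0.16) and 0.14 (SE 0.33), and the median of the list was -0.01. None of 13 lymphocyte transcription factors reached an unadjusted p under 0.05.

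Of 21 chemokines, receptors and adhesion genes of lymphocytes, 2 were higher and 1 lower at an unadjusted p under 0.05. Over all probe sets 3.79% were higher and 3.51% lower at this p. The median difference of the list was -0.03, and 10 of its 21 genes had a positive difference. CXCL9, a chemokine induced by interferon gamma that draws T cells, averaged 4.46 ± 0.53 in low RFI and 3.46 ± 0.66 in high RFI pigs, a difference of 0.99 (SE 0.30, limma q = 0.51), and its classes overlapped. The integrin chain gene ITGA4 differed by 0.26 (SE 0.11) and CXCR5, the receptor that guides B cells to follicles, by -0.40 (SE 0.13). PTPRC, the CD45 gene of all leukocytes, was the only one of 15 pan-leukocyte genes at that p (0.41, SE 0.19, limma q = 0.60).

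Markers of other cells in liver tissue were read in the same way. Of 13 macrophage genes, 2 were higher and none lower at an unadjusted p under 0.05, beside 3.79% and 3.51% of all probe sets. The median difference of the list was 0.05, and 10 of its 13 genes had a positive difference. CD163, a scavenger receptor, averaged 7.08 ± 0.63 in low RFI and 6.40 ± 0.35 in high RFI pigs, and MRC1, the mannose receptor, differed by 0.55 (SE 0.17, limma q = 0.51 without the filter). The mean level of this list over its genes ranged from 7.93 to 8.36 in low RFI and from 7.66 to 8.13 in high RFI pigs. The corresponding ranges for hepatocyte genes (13 on the array) were 12.24 to 12.47 in low RFI and 12.24 to 12.37 in high RFI pigs. For blood cell genes (8 on the array) they were 5.06 to 5.70 in low RFI and 4.94 to 5.63 in high RFI pigs. All of these ranges overlapped. Among the neutrophil, blood cell, endothelial, cholangiocyte and hepatocyte lists no gene reached an unadjusted p under 0.05, and among 10 stellate cell and fibroblast genes RGS5, a pericyte gene, did (0.71, SE 0.31, limma q = 0.59). The part of any of these cells in the values of the lymphocyte markers was not tested.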

How the data were processed

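The authors hybridized liver RNA of 12 pigs, used GCOS 1.1.1 for the scans and then RMA, which corrects background and equalizes distributions over arrays. The deposited values are log2 intensities, 1 per probe set and pig, none pooled. For the RNA preparation, the labels and the paper name different kits. All 47845 probe sets were fitted by limma 3.58.1 under R 4.3.3 on RFI class alone, and called at a Storey q-value (lambda 0.05 to 0.90) under 0.30, as in the study's methods. The study's filter on SD was left out of the main test, since the markers were taken unfiltered, and was run as an alternative. Leaving out the highest SD within a class also removes probe sets with a large residual spread. The fit was tested on simulated data. Replicates are single pigs, and arrays have no depth, so their number limits the precision. Exact permutation tests were two-sided. Correlations used 1e+05 permutations. Genes were named from the platform annotation: 26426 probe sets have 1 symbol, and 21419 are unnamed here. Named are all marker probe sets, up to 4 genes of each list with the smallest unadjusted p under 0.05, 10 genes most like CD3E and 5 each for MS4A1, GZMB and CD72. ALB, TTR, CD3G, CD247, GNLY, NKG7, CD79A and CD79B are named as cell type or receptor markers, some chosen after their values were seen. The markers and lists were chosen with earlier results of these data known. Alternatives changed the filter, threshold, covariates, variance model, array weights, scaling, probe set of a gene, or left out 1 pig at a time.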

Additional observations from a re-analysis of the deposited data

Results flagged for a closer look

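Among 54 groups of 6 pigs (27 probe sets in 2 classes), 4 held a pig whose gap to the others exceeded Dixon's critical value. Chance flags about 1 in 20 groups. CD3E SNOWBALL_001558 was 3.73 in the low RFI pig P323, and 4.55 to 4.97 in the other low RFI pigs. P323 was also low at PRF1 SNOWBALL_017115, with 4.15 against 4.53 to 4.72 in the other low RFI pigs. LCK SNOWBALL_008891 was 2.45 in the low RFI pig P310, and 3.78 to 4.48 in the others of its class. GZMB SNOWBALL_010252 was 5.30 in the high RFI pig P302, and 3.28 to 3.64 in the others of its class.

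The RFI difference of CD3E SNOWBALL_001558 ran opposite ways in the sexes, since every low RFI pig of sex m was above and every low RFI pig of sex w was below the high RFI pigs of the same sex. The interaction was -0.95 (q = 0.96 in limma), so that it did not pass the adjustment over all probe sets.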

How the results depend on the processing

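The count of probe sets called on the whole array moved from 15 to 952 with the filter on SD, to 276 with probe sets averaging at least 4, to 25 with sex as a covariate, and to 0 with a covariate for GC-rich background or with a Benjamini-Hochberg p under 0.05. Leaving out 1 pig at a time gave 1 to 1345, with 1345 without P317 and 1 to 6 without P308, P309, P310, P323, P324, P302, P303 or P304. The count of markers called, 0, was 3 with the filter on SD and 1 (CD72 SNOWBALL_000093, q = 0.24) with the filter on the mean, and 0 to 2 without 1 pig. Markers at an unadjusted p under 0.05, of which there were 4, numbered 3 to 5 without 1 pig. Over all 47845 probe sets, 1450 to 2485 were then higher and 1365 to 2144 lower at this p. With the background covariate 3 markers were higher and 1 lower, beside 1149 higher and 1135 lower of all probe sets. Among the markers, the counts called for sex, interaction and correlated pairs stayed at 0 in every alternative run. Over all probe sets the counts for sex and interaction moved. For sex, 12 were higher and 7 lower in the main fit, and 79 higher and 44 lower with probe sets averaging at least 4. For the interaction there were 0 in the main fit, and 4 positive and 2 negative without P310.

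Of 167 marker differences under alternatives other than leaving out a pig, 7 turned sign, and 17 of the 27 probe sets kept their sign in all settings run. With the background covariate, which was chosen after seeing the data, CD3D SNOWBALL_001560 was 0.22, CD3E SNOWBALL_001558 was 0.12, CD4 SNOWBALL_000953 was 0.0060, CD8A SNOWBALL_000691 was 0.063, CD8A SNOWBALL_000692 was 0.088 and LCK SNOWBALL_023094 was 0.029. With array weights CD8A SNOWBALL_000692 was 0.021. With means of all probe sets the r of CD2 and GZMB was -0.23 and that of CD4 and CD72 was 0.21, and with classes centred the r of GZMB and CD72 was 0.031. The cause was not tested.

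Without 1 pig, 9 differences turned sign for some pig. Their ranges were -0.12 to 0.064 for CD2 SNOWBALL_000895, -0.23 to 0.13 for CD3D SNOWBALL_001560, -0.094 to 0.15 for CD3E SNOWBALL_001558, -0.081 to 0.031 for CD72 SNOWBALL_000092, -0.074 to 0.035 for CD8A SNOWBALL_000691, -0.22 to 0.099 for CD8A SNOWBALL_000692, -0.011 to 0.20 for CD8A SNOWBALL_004908, -0.24 to 0.17 for LCK SNOWBALL_008891 and -0.091 to 0.048 for LCK SNOWBALL_023094. No paired analysis was possible because the labels name neither litter nor sibling. The paper states that siblings of the same sex were selected, but which pigs those are is not in the labels, and the numbers 1 to 6 of each class follow accession order and pair no pigs.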
